A study of Mus musculus with 14 samples.

Results

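The insulin-like growth factor (IGF) genes described here are the ligands Igf1 and Igf2, the receptors Igf1r and Igf2r, and the binding proteins Igfbp2, Igfbp3, Igfbp4, Igfbp5, Igfbp6 and Igfbp7. They were chosen by gene symbol, and all 10 were found among the 43472 genes of the deposited tables. The cells were primary fibroblasts isolated with collagenase IV from tail tips of C57BL/6 mice and grown in DMEM GlutaMax with fetal bovine serum. Each culture was wounded with a scratch. Untreated cultures were compared with cultures given autologous micrograft (AMG), a soluble extract of minced and filtered mouse skin, freed of cells and diluted in growth medium. Citing an earlier study, the paper describes this soluble fraction as rich in growth factors, IGF-1 among them. The values here are of RNA, and IGF protein in the cultures was not measured. There were 14 RNA libraries. Those of replicate 1 cover 1, 5, 12 and 24 h, with 1 library per group and time, and those of replicates 2, 3 and 4 cover 5 h alone. The labels give neither sex nor age, and they do not say whether replicates came from separate animals or cultures, so the p-values measure the spread between these libraries, which may be technical. The cultures are a mixed primary isolate and not a sorted cell type.

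IGF1 and IGF2 are secreted growth factors that signal through the IGF1 receptor, a tyrosine kinase, to the PI3K and AKT kinases and to ERK, and in skin IGF1 comes largely from fibroblasts and acts on neighbouring cells. The IGF2 receptor, also the mannose 6-phosphate receptor, carries IGF2 to lysosomes and does not signal like the IGF1 receptor. The binding proteins hold most IGF outside cells, lengthen its life and keep it from the receptor until proteases such as pappalysin (Pappa) cut them.

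Depth ranged from 12545537 to 34696529 gene-assigned reads per library. Values are normalised counts, meaning the read counts of a library divided by its size factor. Replicate 1 was scaled separately from replicates 2 to 4, so normalised levels were not compared between these 2 tables. The 10 fibroblast markers were present in both groups, but their sum was lower with AMG in 3 of 3 pairs, at 852871 and 528229, 625972 and 501096, and 992114 and 716379 without and with AMG in replicates 2, 3 and 4. In the fit with replicate number as a block, 7 of the 10 fell and 0 rose. Col1a1 was among those that fell (log2 fold change -0.63, limma adjusted p = 0.0109 with the block). The same fit called 19.3% of all genes lower and 17.9% higher with AMG. Of the lists for other cell types, 3 of 8 keratinocyte genes (Krt5 and Krt14 among them), 4 of 5 adipocyte genes (Adipoq, Plin1, Cidec and Lep) and 3 of 7 muscle genes (Myod1, Myog and Pax7) were at 0 reads in all 6 libraries of replicates 2 to 4. Other genes of these lists were present, with Fabp4 of the adipocyte list at 259 to 2067, Acta1 and Des of the muscle list at 1735 to 7289 and 68.9 to 341, and Krt10 and Trp63 of the keratinocyte list at 15.3 to 52.2 and 0 to 41.6. In the blocked fit Fabp4 rose and Acta1 and Trp63 fell with AMG. Replicate 3 stood apart from replicates 2 and 4 in both groups, with Thy1, a fibroblast surface protein, at 14712 and 14412 against 1068 to 1723. Col2a1, a cartilage collagen, was at 21940 and 12336 in replicate 2 against at most 1102 in replicates 3 and 4. Within each pair of libraries the treated to untreated ratio (log2) was also related across genes to transcript length. Spearman's rho was -0.32, -0.21 and -0.39 in replicates 2, 3 and 4 and 0.42 in replicate 1 at 5 h (genes are not independent replicates), so long transcripts were lower with AMG in 3 pairs and higher in the fourth. Igf1r (16791 exonic bases), Igf1 (9904) and Igf2r (9308) are the longest of the IGF genes, and Igfbp6 (1112), Igfbp7 (1209) and Igfbp2 (1847) the shortest. At 5 h, values corrected for length are therefore given for each tested IGF gene and for the pathway genes named as called. They are not given for the marker genes.

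The question at 5 h was which IGF genes differed between AMG-treated and untreated fibroblasts. With limma on log2(normalised count + 1), 9 of the 10 genes were tested, since Igf2 had a mean under 10. None of the 9 passed an adjusted p under 0.05, and 2 (Igf1 and Igf1r) had an unadjusted p under 0.05. Over all 13096 genes the same test called 1.24% and an unadjusted p under 0.05 was found for 23.1%. edgeR on the recovered reads called 0 of the 9 (1.03% of all genes) and DESeq2 called the same 2, Igf1 and Igf1r (10.9% of all genes). Libraries of one replicate number deviated together, and when the number was entered as a block, limma called 7 of the 9, with Igfbp2, Igfbp3 and Igfbp7 higher and Igf1, Igf1r, Igf2r and Igfbp5 lower. This fit called 37.2% of all genes, 17.9% higher and 19.3% lower, so a call is common in it. edgeR with the same block also called 7 (37% of all genes). Counted by direction alone, the treated value was the higher one in 3 of 3 pairs for 3 of the 9 (31.9% of all genes) and the lower one for 4 (34.5%). With a correction for transcript length added, 4 of the 9 remained called, namely Igf1, Igf1r, Igfbp3 and Igfbp5, beside 34% of all genes.

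**Figure D1:**
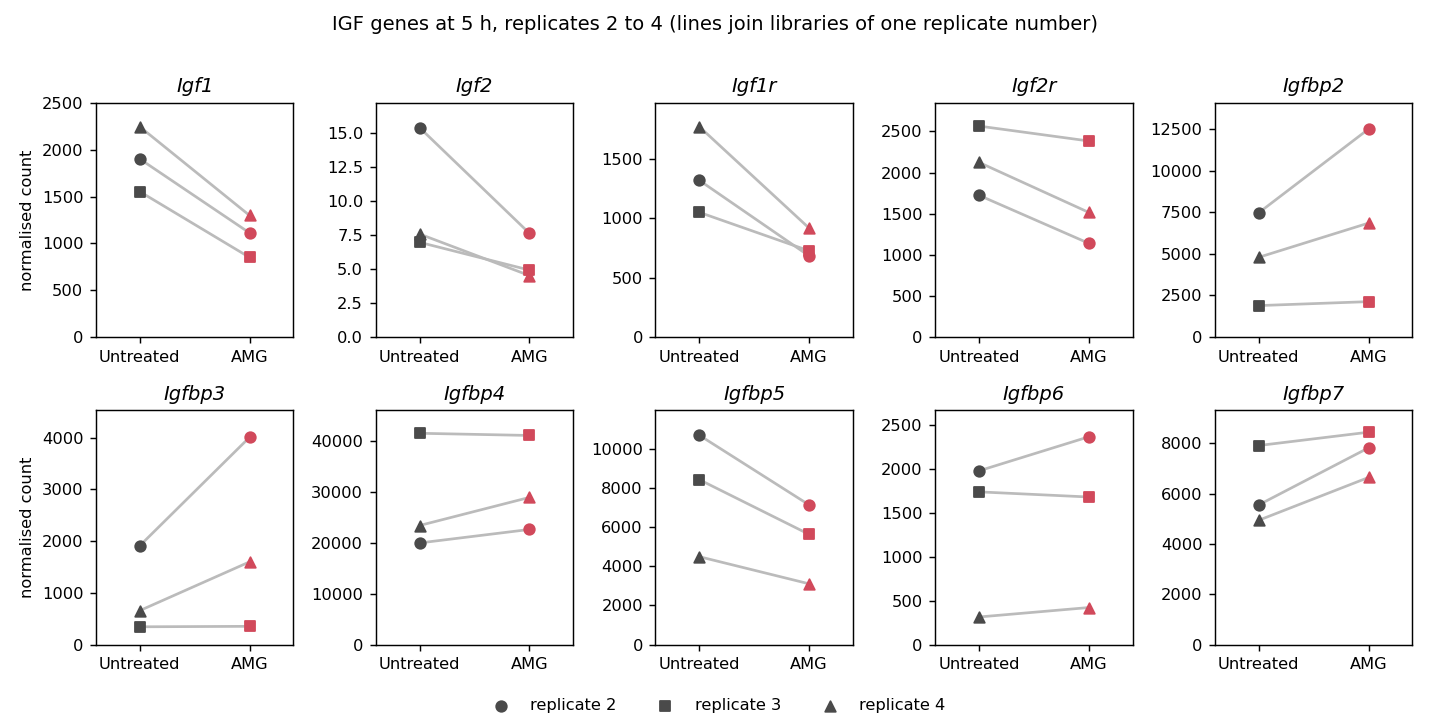
Normalised count (linear axis from 0, a scale per gene) of each IGF gene at 5 h in untreated (grey) and AMG-treated (red) libraries of replicates 2 (circles), 3 (squares) and 4 (triangles), with lines joining libraries of one replicate number. Igf1 and Igf1r are the genes whose 3 treated values all lie below the 3 untreated values, while the groups of the other 8 genes overlap.

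Igf1, the ligand made by fibroblasts (chr10:87858265-87937042, plus strand, mm10), had normalised counts of 1903, 1554 and 2247 in untreated replicates 2, 3 and 4 and of 1112, 850 and 1299 in the treated ones. Every treated value lay below every untreated value, and the step was similar in each pair. The means were 1901 ± 347 and 1087 ± 225 (SD, n = 3), a fold of 0.570. This is a log2 fold change of -0.81 (SE 0.21), with an adjusted p of 0.102 in limma, 0.000342 with the replicate block and 0.0136 in DESeq2, and between 6.24e-07 and 0.302 over all alternatives. The lower end came from the blocked limma fit without both libraries of replicate 3, which was added after the data had been seen. Igf1 fell in the blocked fit, and it fell by 0.55 on the log2 scale (limma adjusted p = 0.00247) when transcript length was also corrected. The log2 ratios of the pairs were -0.77, -0.87 and -0.79 in replicates 2, 3 and 4 and -0.65 in replicate 1, which is in the other table. Igf1 was thus lower in 4 of 4 pairs, as 16% of all genes were, and it was the only one of the 9 tested IGF genes lower in all 4. With edgeR on all 4 replicates and the replicate block, an alternative added after the data had been seen, it was also the only one called (log2 fold change -0.76, adjusted p = 0.0316, 3.78% of all genes called).

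Igf1 is also made by macrophages, so macrophage and leukocyte genes are given beside it. The list of 8 summed to 268, 164 and 1338 without AMG and to 214, 204 and 1164 with AMG in replicates 2, 3 and 4, lower with AMG in 2 of the 3 pairs. Of the 8 genes, 4 were tested and 0 passed with the replicate block (37.2% of all genes), and the T cell gene Cd3e was at 0 in each library. Adgre1, which encodes the macrophage protein F4/80, was at 2.20, 1.39 and 77.3 without AMG and at 2.54, 2.46 and 45.2 with AMG. Csf1r, the receptor of the macrophage growth factor, was at 81.4, 73.8 and 182 without and 59.8, 77.1 and 107 with AMG, and Lyz2, a lysozyme of myeloid cells, at 158, 76.6 and 978 without and 127, 95.9 and 916 with AMG. Each of the 3 genes was highest in replicate 4 of both groups. The fibroblast marker sum was lower with AMG in each of the same pairs. The part of these genes in the Igf1 difference was not tested. In bulk RNA, fewer cells of a type and less RNA per cell cannot be told apart.

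Igf2 (chr7:142650766-142666816, minus strand), the fetal growth factor that is imprinted and largely silent after birth, was close to undetected. Its normalised counts were 15.4, 6.96 and 7.57 without AMG and 7.63, 4.92 and 4.52 with AMG in replicates 2, 3 and 4, from 4 to 14 reads per library, and the groups overlapped. These counts are above the floor of 3 reads. In limma without the filter on the mean, the log2 fold change was -0.66 (SE 0.60, adjusted p = 0.644). The imprinted neighbour H19, a long non-coding RNA, was also low, with 4 to 36 reads per library in replicates 2 to 4 and a log2 fold change of -0.42 (limma adjusted p = 0.818). Igf2os, transcribed from the opposite strand of Igf2, had at most 5 reads in any library. Because the strand setting of the counting was not stated, reads of Igf2 and Igf2os cannot be told apart with certainty.

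Among the receptors, Igf1r (chr7:67952827-68233668, plus strand), the signalling receptor, had 1318, 1048 and 1769 normalised counts in untreated replicates 2, 3 and 4 and 682, 725 and 916 in treated ones. All treated values lay below all untreated values. Igf1r and Igf1 were the 2 of 9 tested genes whose groups did not overlap, beside 28.7% of all genes. Its log2 fold change was -0.81 (SE 0.22) with an adjusted p of 0.112 in limma, 0.00112 with the replicate block and 0.0176 in DESeq2. Corrected for length, the fall in the blocked fit was -0.46 (limma adjusted p = 0.00515). Replicate 1 went the other way at 5 h, with 270 in the untreated and 443 in the treated library, a log2 ratio of 0.71 that was close to 0 after the length correction. With that pair added, edgeR with the replicate block gave -0.44 (adjusted p = 0.468), and the adjusted p lay between 1.31e-07 and 0.539 over all alternatives. As for Igf1, the lower end came from the blocked limma fit without both libraries of replicate 3.

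Igf2r (chr17:12682406-12769664, minus strand), the receptor that clears IGF2, had 1723, 2565 and 2123 without AMG and 1139, 2383 and 1515 with AMG in replicates 2, 3 and 4. The treated value was the lower of each pair, but the groups overlapped, with both libraries of replicate 3 high. The log2 fold change of -0.40 (SE 0.29) had a limma adjusted p of 0.431 without and 0.0210 with the replicate block, and it was -0.15 (adjusted p = 0.226) once length was corrected. In replicate 1 at 5 h the ratio was 1.12. The unspliced antisense RNA Airn lies across the Igf2r gene on the other strand.

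**Figure D2:**
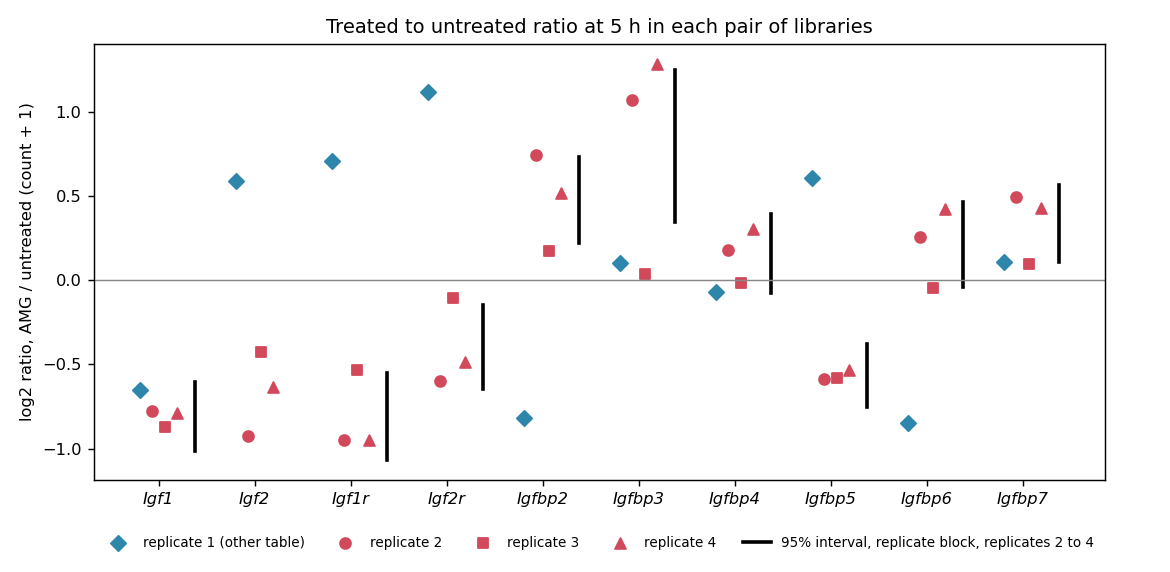
Log2 ratio of treated to untreated normalised count (each + 1) at 5 h for each IGF gene in replicate 1 (blue diamonds, other table) and replicates 2, 3 and 4 (red circles, squares and triangles), with the 95% interval of the limma fit with replicate block on replicates 2 to 4 as a black bar. Igf1 lies between -0.87 and -0.65 in all 4 pairs, and Igfbp3 and Igfbp7 lie above 0 in all 4, whereas the other 7 genes have replicate 1 on the other side of 0 from at least 2 of the other pairs. Igf2 has no bar because its mean was under the filter of that fit.

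Igfbp5 and Igfbp2 are neighbours on chromosome 1 that end towards each other, 5457 bp apart, with Igfbp2 at chr1:72824503-72852474 on the plus strand and Igfbp5 at chr1:72857932-72874884 on the minus strand. Igfbp5, a binding protein that also sticks to the extracellular matrix, had 10700, 8428 and 4490 without AMG and 7139, 5633 and 3104 with AMG in replicates 2, 3 and 4. The replicates differed in level and the groups overlapped, yet the ratio was nearly equal in the 3 pairs, at -0.58, -0.58 and -0.53. For Igfbp5 the log2 fold change was -0.57 (SE 0.41) with a limma adjusted p of 0.430, and 0.00138 with the replicate block. Igfbp5 fell in the blocked fit and also with the length correction added, by 0.44 on the log2 scale (adjusted p = 0.00307). Replicate 1 gave 5062 and 7708 at 5 h, a log2 ratio of 0.61 (0.35 corrected for length), opposite to the other pairs. The fibroblast marker sum was also lower with AMG in replicates 2, 3 and 4, and its part in the Igfbp5 difference was not tested.

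Igfbp2, which carries IGF2 with preference and binds integrins, had 7478, 1887 and 4794 without AMG and 12516, 2125 and 6854 with AMG in replicates 2, 3 and 4. The treated value was the higher of each pair, opposite in direction to the neighbouring Igfbp5, and replicate 3 was the lowest in both groups. In limma its log2 fold change of 0.48 (SE 0.73) had an adjusted p of 0.730 without and 0.0107 with the replicate block, and it was 0.21 (adjusted p = 0.0995) with length corrected. In replicate 1 the untreated library had 17002 and the treated one 9632, a ratio of -0.82. The promoters of both genes are shown because the genes adjoin and lay on opposite sides of 0. They are the bases before the first RefSeq start of each gene, read 5′ to 3′ along the gene's own strand (GRCm38.p6), at chr1:72824230-72824479 (plus) for Igfbp2 and chr1:72874885-72875115 (minus) for Igfbp5. The 19 bases nearest the RefSeq start of Igfbp5 are left out because they lie in an annotated exon. Capitals mark 2 overlapping matches to the binding sequence of NF-kB, which begin 196 and 195 bases before the Igfbp5 start.
Igfbp2 promoter: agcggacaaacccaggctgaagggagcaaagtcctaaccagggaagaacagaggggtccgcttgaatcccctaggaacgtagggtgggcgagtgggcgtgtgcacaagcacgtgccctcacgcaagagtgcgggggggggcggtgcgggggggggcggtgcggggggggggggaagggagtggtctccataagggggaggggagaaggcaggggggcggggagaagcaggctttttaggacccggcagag
Igfbp5 promoter: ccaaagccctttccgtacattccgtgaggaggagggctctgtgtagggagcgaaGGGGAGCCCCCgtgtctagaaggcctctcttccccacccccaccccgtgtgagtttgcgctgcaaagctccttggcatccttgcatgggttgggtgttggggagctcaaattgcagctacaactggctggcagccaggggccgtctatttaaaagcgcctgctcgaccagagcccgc

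Short binding sequences were searched on both strands in the 250 bases before each of 14 RefSeq starts of the 10 genes and, for comparison, before 32851 starts of all genes. The AP-1 pattern TGANTCA, with any base allowed at N, was found before 2 of the 14 starts (6.75% of all starts). These were the start of Igf1, with the match TGAATCA, and the inner start of Igfbp2, with TGAGTCA. Both windows lie inside the annotated span of their gene. The NF-kB sequence was found before 1 (Igfbp5, 7.25% of all), the C/EBP sequence TTGCNNAA before 0 (9.56%), the FoxO sequence TGTTTAC before 0 (3.17%) and TATAAA before 2 (Igfbp4 and Igfbp6, 12.4%). AP-1 and NF-kB are factors of wound and inflammatory responses, C/EBP factors act in acute phase responses, and FoxO factors are held out of the nucleus by AKT downstream of IGF1. The Igf1 and Igfbp2 sites are shown with 10 bases on either side and the AP-1 match in capitals, at chr10:87861064-87861090 and chr1:72825338-72825364, both on the plus strand. The matches begin 37 and 39 bases before their starts. A match is a description of the letters and not evidence of binding.
Igf1 site: agctggaactTGAATCActattctgga
Igfbp2 site: aaacaaaactTGAGTCAgtgaccaccg

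Igfbp3 (chr11:7206086-7213923, minus strand), the main IGF carrier of blood plasma, had 1911, 343 and 656 without AMG and 4008, 352 and 1598 with AMG in replicates 2, 3 and 4. The treated value was far higher in replicates 2 and 4 and hardly differed in replicate 3, with log2 ratios of 1.07, 0.04 and 1.28. Over the 3 pairs the log2 fold change was 0.80 (SE 0.96) with a limma adjusted p of 0.648, and 0.0138 with the replicate block, in which Igfbp3 rose. It remained called with the length correction (0.69, limma adjusted p = 0.0217). Without both libraries of replicate 3, the pair with the ratio of 0.04, the blocked limma fit gave 1.18 (adjusted p = 4.11e-09, from 2 pairs). That fit was added after the data had been seen, and it called 51.9% of all genes. Over all alternatives the adjusted p lay between 4.11e-09 and 0.998. Replicate 1 had 2647 and 2843 at 5 h, a ratio of 0.10.

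Igfbp7 (chr5:77349240-77408041, minus strand), a low-affinity binding protein of the matrix that is also secreted by senescent cells, had 5553, 7912 and 4941 without AMG and 7819, 8442 and 6642 with AMG. The treated value was the higher of each pair, and the groups overlapped. The log2 fold change of 0.34 (SE 0.20) had a limma adjusted p of 0.348 without and 0.0277 with the replicate block. It was -0.04 (adjusted p = 0.710) with length corrected, so its direction depends on that setting. With a ratio of 0.11 in replicate 1, Igfbp7 and Igfbp3 were the 2 IGF genes higher in 4 of 4 pairs, beside 15.7% of all genes. Polr2b, a subunit of RNA polymerase II, overlaps Igfbp7 on the other strand.

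The other binding proteins passed in neither fit. Igfbp4 (chr11:99041244-99054392, plus strand), an inhibitor of IGF action that pappalysin cleaves, had 19919, 41428 and 23339 without AMG and 22563, 41001 and 28845 with AMG, with replicate 3 the highest in both groups. Its log2 fold change was 0.16 (SE 0.33, 95% interval -0.64 to 0.95), with a limma adjusted p of 0.810 and of 0.266 with the replicate block. Igfbp6 (chr15:102144362-102149511, plus strand), which prefers IGF2, had 1979, 1739 and 314 without AMG and 2366, 1681 and 421 with AMG, with replicate 4 the lowest in both groups. Its log2 fold change was 0.21 (SE 0.88, 95% interval -1.86 to 2.29) with a limma adjusted p of 0.909 and of 0.170 with the replicate block. With length corrected, the blocked fit gave 0.18 (adjusted p = 0.177) for Igfbp4 and -0.19 (adjusted p = 0.124) for Igfbp6, so the direction of Igfbp6 depends on that setting. The blocked intervals without the correction were -0.08 to 0.39 for Igfbp4 and -0.04 to 0.47 for Igfbp6. Without both libraries of replicate 3, the blocked fit called all 9 tested IGF genes (51.9% of all genes), Igfbp4 and Igfbp6 included, and the fit without a block called 2, Igf1 and Igf1r (21.2% of all genes).

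Levels of different genes were compared as normalised count per kb of exon, in replicates 2 to 4 at 5 h. The 6 binding proteins had the highest means, although Igfbp3 overlapped Igf2r and Igf1. In untreated libraries Igfbp4 stood at 6392 ± 2617 per kb, Igfbp7 at 5075 ± 1297, Igfbp2 at 2555 ± 1514, Igfbp5 at 1311 ± 523, Igfbp6 at 1209 ± 810 and Igfbp3 at 310 ± 265 (SD, n = 3). Igf2r followed at 230 ± 45.3 per kb, then Igf1 at 192 ± 35.0, Igf1r at 82.1 ± 21.7 and Igf2 at 1.74 ± 0.82. In this order only Igfbp7 and Igfbp2, Igf1 and Igf1r, and Igf1r and Igf2 were neighbours whose 3 values did not overlap. With AMG the order was the same except that Igfbp6 (1339 ± 887) stood above Igfbp5 (881 ± 340), and these overlapped in both groups.

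**Figure D3:**
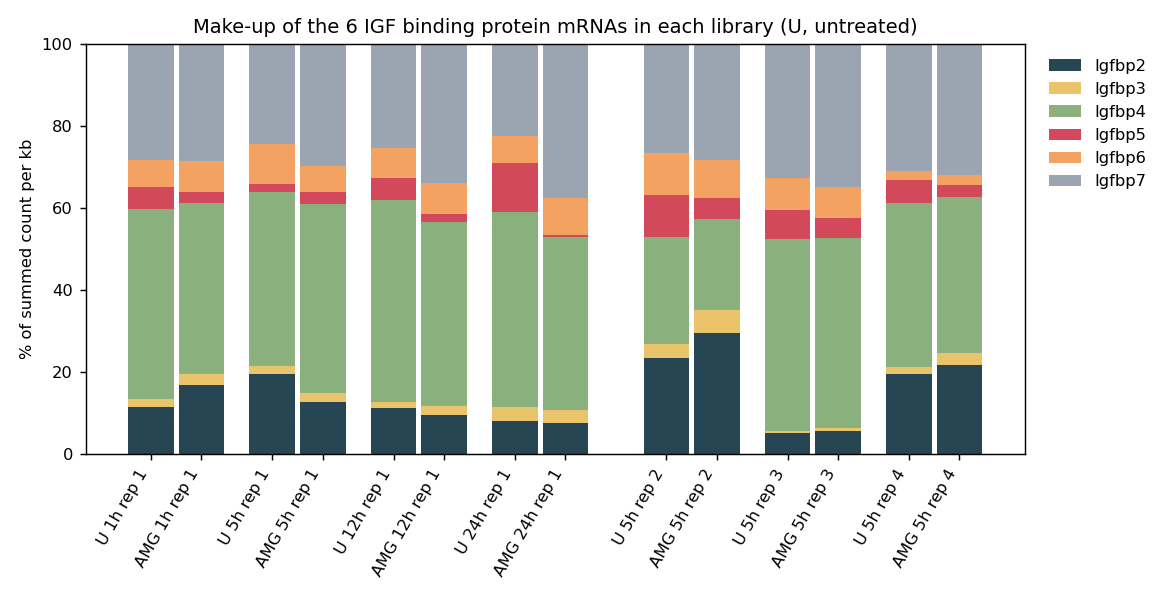
Share of each binding protein (% of the summed normalised count per kb of the 6 binding proteins) in each of the 14 libraries, untreated (U) beside AMG-treated, with replicate 1 by time on the left and replicates 2 to 4 at 5 h on the right. Igfbp4 and Igfbp7 make up the largest shares in most libraries, Igfbp2 is small in replicate 3, and the share of Igfbp5 shrinks with AMG in replicate 1 at 1, 12 and 24 h and in replicates 2 to 4.

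The sum of the 6 binding proteins was 17323, 20024 and 13207 per kb in untreated replicates 2, 3 and 4 and 22950, 19979 and 17143 in treated ones, higher with AMG in 2 of the 3 pairs. Set against the Igf1 level per kb of the same library, this sum was 90.2, 128 and 58.2 times the Igf1 level without AMG and 204, 233 and 131 times with AMG. The 3 treated ratios all lay above the 3 untreated ratios, narrowly, at 131 against 128. Igf1 alone did not overlap between the groups either, and the groups of 28.7% of all single genes did not overlap. The ratio was not corrected for length. Igf1 is longer than each binding protein, and long transcripts were lower with AMG in these pairs. In replicate 1 the same ratio was 1001 and 1318 at 1 h, 1205 and 1666 at 5 h, 894 and 2298 at 12 h, and 617 and 1766 at 24 h, without and with AMG. It was higher with AMG at each time, whereas the sum itself was lower with AMG at 5, 12 and 24 h (31525 and 21510 per kb at 24 h). The share of Igfbp5 among the binding proteins was 10.3, 7.01 and 5.66% without AMG and 5.18, 4.69 and 3.01% with AMG in replicates 2, 3 and 4.

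Replicate 1 followed the genes over 24 h. With 1 library per group and time these ratios have no replicate check and no p-value, and the intervals given cover counting error only. Igf1 was nearly equal in both libraries at 1 h, with 324 and 330 normalised counts without and with AMG. At 5 h it stood at 385 and 245, at 12 h at 345 and 94.3, and at 24 h at 506 and 121. The treated libraries thus lay below the untreated ones by a growing factor, with log2 ratios of 0.03, -0.65, -1.86 and -2.06 and counting intervals of -2.20 to -1.55 at 12 h and -2.35 to -1.80 at 24 h. At 12 h this was a level 3.63-fold lower and at 24 h 4.17-fold lower with AMG, and the ratios were -1.94 and -1.90 after the length correction. With libraries scaled by their total reads, which moved the median ratio of all genes by -0.21 at 1 h and by at most 0.09 in size at the other times, the 1 h ratio of Igf1 was -0.18.

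In the same libraries Adgre1 was at 57.1, 36.1, 30.7 and 48.2 without AMG and at 50.4, 8.51, 5.72 and 6.30 with AMG at 1, 5, 12 and 24 h. The macrophage and leukocyte list summed to between 1106 and 1833 without and between 370 and 1205 with AMG, with Cd3e at 0. Adgre1 and the list sum were lower with AMG at each of these times. That includes 1 h, when Igf1 was nearly equal and the sums were 1341 and 1205 without and with AMG. The fibroblast marker sum was 528601, 345815, 440495 and 489044 without AMG and 368004, 395118, 320848 and 255447 with AMG at 1, 5, 12 and 24 h, lower with AMG at 1, 12 and 24 h. The part of either list in the Igf1 ratio of replicate 1 was not tested.

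Igfbp5 showed the largest ratio of the IGF genes in replicate 1. It was at 10395 and 7287 at 1 h, 5062 and 7708 at 5 h, 9972 and 2443 at 12 h, and 22605 and 669 at 24 h, without and with AMG. The treated level was the lower one at 1, 12 and 24 h and the higher one at 5 h. The log2 ratios were -0.51, 0.61, -2.03 and -5.08, and the counting interval at 24 h was -5.19 to -4.97, from 29519 and 743 reads. The level at 24 h was 33.8-fold lower with AMG, the 8th lowest ratio of the 13498 genes whose mean reached 10 in this table. The length correction gave -2.06 at 12 h and -5.00 at 24 h. Between 1 and 24 h the untreated level went from 10395 to 22605, a log2 difference of 1.12, and the treated level from 7287 to 669, a log2 difference of -3.44. The sum of the 6 cartilage and bone genes was lower with AMG at 1, 12 and 24 h and higher at 5 h. At 24 h it was 999 and 123, of which Col2a1 made up 988 and 119. In replicates 2 to 4 at 5 h, 3 genes of this list were tested. In the blocked fit 1 of them rose (Ibsp) and 1 fell (Col2a1). The fibroblast marker sum was likewise lower with AMG at 1, 12 and 24 h and higher at 5 h. The part of either list in the Igfbp5 ratio was not tested.

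**Figure D4:**
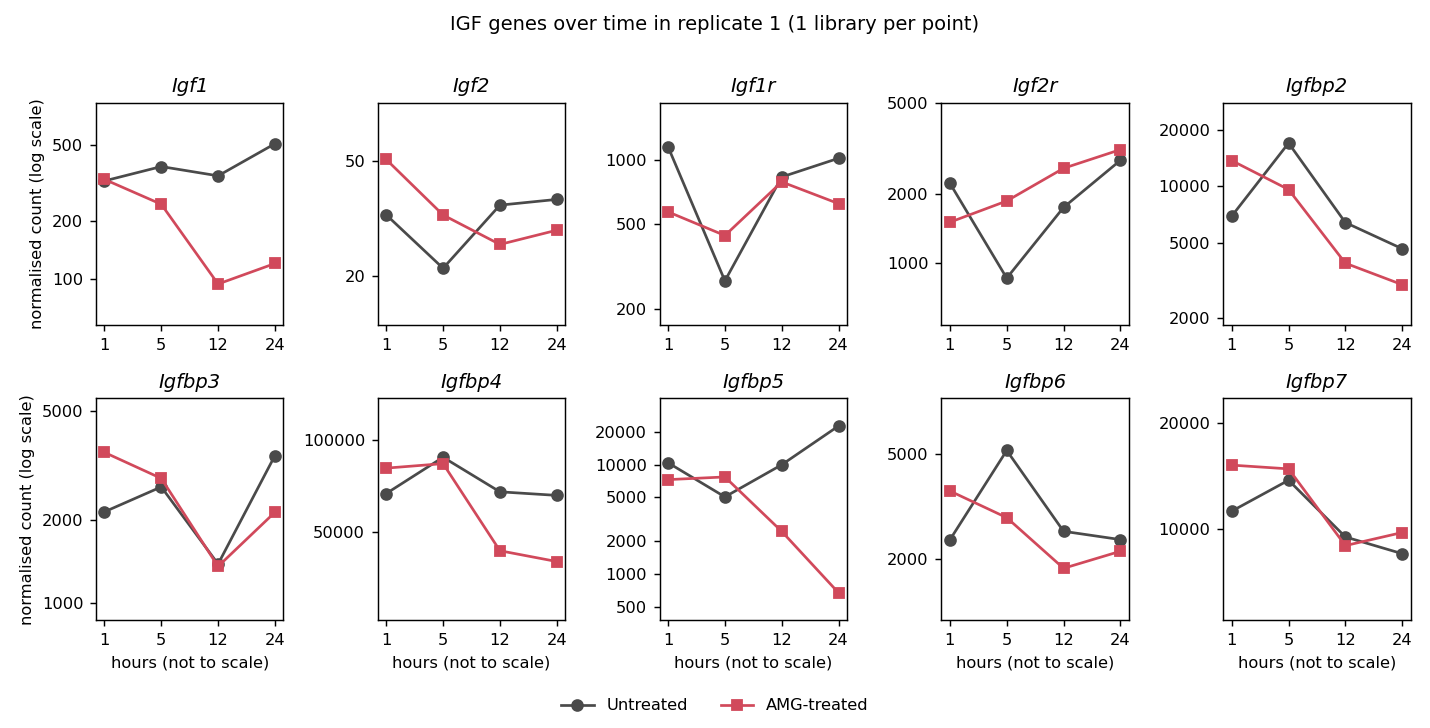
Normalised count (log axis, a scale per gene) of each IGF gene in replicate 1 at 1, 5, 12 and 24 h (spaced evenly, not to scale) in untreated (grey circles) and AMG-treated (red squares) cultures, 1 library per point. The curves of Igf1 and Igfbp5 part after 5 h, reaching 506 and 121 for Igf1 and 22605 and 669 for Igfbp5 at 24 h, while those of Igfbp7 and Igf2r stay close at 24 h.

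Counted over the 10 IGF genes, the ratio in replicate 1 was below -1 for 1 gene at 1 h (Igf1r), 0 at 5 h, 2 at 12 h and 2 at 24 h (Igf1 and Igfbp5 at both). The shares of all 13498 genes below -1 were 10.7%, 12.6%, 6.9% and 8.05%, and 4.01% were below -1 at both 12 and 24 h. Above 1 there were 0, 1, 0 and 0 IGF genes (Igf2r at 5 h), beside 11.3%, 13.3%, 5.93% and 6.05% of all genes. The median ratio of the 10 genes was 0.35, 0.10, -0.45 and -0.66 at 1, 5, 12 and 24 h, and that of all genes lay between -0.06 and 0.02. At 12 h 9 of the 10 IGF genes were below 0 and at 24 h 8 of the 10.

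Each later library of replicate 1 was also set against the 1 h library of its own group. In untreated cells at 5 h, Igfbp2 (1.29) and Igfbp6 (1.13) were above 1, beside 15.5% of all genes. Igf1r (-2.09), Igf2r (-1.37) and Igfbp5 (-1.04) were below -1, beside 16.8%. In that 5 h library the short ribosomal protein genes took 6.33% of reads. With the length correction 0 IGF genes were above 1 and 1 was below -1 in untreated cells at 5 h. At 12 h 0 IGF genes were past either bound (5.39% of all genes above 1 and 7.01% below -1), and at 24 h Igfbp5 alone was above 1 (7.02% of all genes) and 0 were below -1 (7.62%). In AMG-treated cells 0 IGF genes were past either bound at 5 h (11.5% of all genes above 1 and 10.3% below -1). At 12 h Igf1 (-1.80), Igfbp2 (-1.81), Igfbp3 (-1.38) and Igfbp5 (-1.58) were below -1 (17.6% of all genes) and 0 were above 1 (16.8%). At 24 h Igf1 (-1.45), Igfbp2 (-2.19), Igfbp4 (-1.02) and Igfbp5 (-3.44) were below -1 (16.7%) and Igf2r (1.05) was above 1 (16.2%). With the length correction 0 IGF genes were above 1 in treated cells at 24 h. The binding proteins and Igf1 were thus below their 1 h level at 12 and 24 h in the treated libraries. In the untreated ones at 24 h, Igf1 (0.64), Igfbp3 (0.68) and Igfbp5 (1.12) were above it. Igfbp4 (-0.02) and Igfbp6 (0.003) were close to it, and Igfbp2 (-0.58) and Igfbp7 (-0.40) were below it. Ribosomal protein genes took 4.62% of reads in the treated 1 h library, against 2.28 and 2.78% in the treated 12 and 24 h libraries.

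Among the receptors in replicate 1, Igf1r had ratios of -1.02, 0.71, -0.08 and -0.71 at 1, 5, 12 and 24 h, which the length correction moved to -0.51, close to 0, -0.23 and -0.47. Igf2r had ratios of -0.56, 1.12, 0.57 and 0.16, and the correction moved the 5 h value to 0.67. The untreated library at 5 h was the lowest of the 8 for both receptors, at 270 for Igf1r and 862 for Igf2r. In that library ribosomal protein genes, which are short, took 6.33% of reads, against 2.06 to 4.62% in the other 7. The 5 h pair of replicate 1 thus had the opposite length balance from replicates 2 to 4, and the receptor ratios were smaller once length was corrected.

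The binding proteins Igfbp4 and Igfbp2 were lower with AMG at 12 and 24 h, while Igfbp7, also abundant, was higher with AMG at 24 h. Igfbp4 had ratios of 0.28, -0.07, -0.64 and -0.72 at 1, 5, 12 and 24 h, from 66032 and 40053 normalised counts at 24 h. Igfbp2 had ratios of 0.98, -0.82, -0.72 and -0.63, so that the treated library was the higher one at 1 h only. Within the treated libraries Igfbp2 went from 13726 at 1 h to 3005 at 24 h. Igfbp3 had ratios of 0.72, 0.10, -0.03 and -0.69, Igfbp6 of 0.62, -0.85, -0.47 and -0.15, and Igfbp7 of 0.43, 0.11, -0.08 and 0.20. The ratios of these binding proteins, Igfbp4 and Igfbp2 included, are given without length correction. Across genes, Spearman's rho of the ratio with transcript length was -0.43 at 1 h and 0.42 at 5 h. Short transcripts were thus higher with AMG at 1 h and lower at 5 h. Igfbp6, Igfbp7 and Igfbp2 are the shortest of the IGF genes. Igf2 had 13 to 48 reads per library, and the counting intervals of its ratios (0.62, 0.59, -0.43 and -0.34) all included 0.

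The rest of the IGF pathway was read from a list of 34 genes, of which 29 were tested at 5 h. None passed in limma (1.24% of all genes), 6 had an unadjusted p under 0.05 (23.1%), edgeR called 0 (1.03%) and DESeq2 called 3 (10.9%). With the replicate block 14 passed (37.2% of all genes), 2 higher (17.9%) and 12 lower (19.3%) with AMG. With the length correction added 8 passed (34% of all genes), 2 higher and 6 lower. The median log2 fold change of the 29 was -0.37 (-0.14 with length corrected), beside -0.02 for all genes. The binding proteins Igfbp1 and Igfbpl1 and the adaptor Irs4 had 0 reads in replicates 2 to 4, and Igfals, the partner of IGFBP3 in plasma complexes, was at 0 in the treated libraries.

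Among the proteases that cut binding proteins, Pappa, which cleaves IGFBP4 and IGFBP5, had a mean of 864 ± 465 without and 418 ± 197 with AMG (SD, n = 3). It fell in the blocked fit (log2 fold change -1.04, limma adjusted p = 0.239 without and 0.00327 with the block). Adamts1, a matrix protease, fell likewise from 2154 ± 738 to 988 ± 143 (log2 fold change -1.08, limma adjusted p = 0.0865 without and 0.000287 with the block). Both kept a blocked call after length correction (Pappa -0.76, limma adjusted p = 0.00577, and Adamts1 -0.97, adjusted p = 0.000580), unlike Pappa2 (-0.92, blocked adjusted p = 0.0414 in limma and 0.121 with length corrected). In replicate 1 Pappa was at 861 and 208 at 12 h and at 885 and 91.8 at 24 h without and with AMG, log2 ratios of -2.05 and -3.26, whereas it was higher with AMG at 5 h (0.73). The ratio of Pappa was thus below -1 at both 12 and 24 h, as it was for Igfbp5, for Igf1 and for 4.01% of all genes.

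Among adaptors and kinases, Pik3r3, a regulatory subunit of PI3K, had the largest change of the list, from 835 ± 83.4 to 333 ± 185 (SD, n = 3), a log2 fold change of -1.45 (limma adjusted p = 0.0941 without and 0.00171 with the block). It was lower in 4 of 4 pairs, with -0.62 in replicate 1. Irs2 and Irs1, which link the receptors to PI3K, had log2 fold changes of -1.15 and -0.50 and passed with the block (limma adjusted p = 0.0179 and 0.0140). With length corrected as well, Pik3r3 (-1.34, limma adjusted p = 0.00164) and Irs2 (-1.02, adjusted p = 0.0263) remained called and Irs1 (-0.26, adjusted p = 0.0790) did not. The other named genes that passed with the block and were lower were Pdpk1 (-0.54), the adaptor Grb10 (-0.53), Mtor (-0.47) and the insulin receptor Insr (-0.46). Of these 4, Grb10 alone remained called with length corrected (-0.29, limma adjusted p = 0.0235), while Pdpk1 (-0.26, adjusted p = 0.0783), Mtor (-0.20, adjusted p = 0.121) and Insr (-0.14, adjusted p = 0.362) did not. Foxo3, a FoxO factor restrained by AKT, rose in the blocked fit by 0.49 (limma adjusted p = 0.0107), by 0.67 with length corrected (adjusted p = 0.00398), and was higher in 4 of 4 pairs. In replicate 1 at 5 h Irs2, Irs1, Pdpk1, Mtor and Insr were higher with AMG, by 1.53, 0.76, 0.91, 0.73 and 0.41, and the median ratio of the list was 0.39. These ratios are given without length correction, and long transcripts were higher with AMG in that pair (Spearman's rho 0.42 across genes). Grb10 was at 6338 and 2670 at 12 h and 9480 and 3147 at 24 h without and with AMG, ratios of -1.25 and -1.59. Over the 28 listed genes whose mean reached 10 in replicate 1, the ratio was below -1 for 6, 1, 3 and 5 at 1, 5, 12 and 24 h, beside 10.7%, 12.6%, 6.9% and 8.05% of all genes.

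Likeness to other genes was measured as Pearson's r over the 14 libraries, each table centred on its own mean, for the 3 IGF genes of largest change at 5 h, among 10877 genes. The libraries share their scaling, length balance and treatment, so these values are a description. Igf1 was most like Mylk (0.95), Dio3 (0.94) and Dkk3 (0.93). Igf1r was most like Mtmr1 (0.94), Glb1l (0.94) and Tln2 (0.93), and Igfbp3 most like Emc3 (0.91), Ubxn11 (0.90) and Cda (0.89).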

How the data were processed

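Stranded poly(A) libraries were sequenced as single-end reads. The authors removed adapters, aligned reads to mm10 with TopHat2 2.0.13, kept unique alignments, counted reads per gene with HTSeq 0.5.3p3 and deposited a normalised signal (counts divided by DESeq size factors) in 2 separately scaled tables. The annotation release and strand setting of the counting are not given in the sources used here. Every value was a whole multiple of its library's step, and 100% came out as whole reads within 0.1. A floor of 3 reads equals 1.62 to 5.22 normalised counts. There were 0 unmapped columns.

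Replicates 2 to 4 at 5 h were compared with limma 3.58.1 (R 4.3.3) on log2(normalised count + 1), which understates changes of low genes, for 13096 genes with a mean of at least 10 and Benjamini-Hochberg adjustment. edgeR 4.0.16 and DESeq2 1.42.0 were run on the recovered reads. Deviations from group means correlated with r of 0.65, 0.76 and 0.70 for libraries of the same number and -0.59 to 0.12 otherwise, so the numbers were taken as pairs. What a shared number stands for is not given in the labels. For the length correction each library's trend on log2 exonic length (GENCODE M21) was removed by loess, for 95.3% of tested genes. The other alternatives were pseudocounts of 0.1 and 10, no filter and a mean of at least 50, limma without the trend, upper quartile scaling, scaling by library totals (RPM), all 4 replicates, and each library left out. Limma, edgeR and DESeq2 without the block were tried on simulated counts that had no replicate effect. The known changes in them were larger than those of the IGF genes at 5 h. The length correction was tried on a simulated length trend. The blocked fits were not tried on simulated data. Counting intervals are exact, conditional on the reads of both libraries.

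All 10 IGF genes are named. Pathway genes are named if called with or without the block, at most 12 by size of change, besides H19 and Igf2os. A gene that this rule names is not reported here. Genes outside this rule (Adgre1, Csf1r, Lyz2, Col1a1, Col2a1, Thy1, Cd3e and other markers, and those with 0 reads) were chosen after their values were seen. The IGF genes and lists were chosen with earlier results of these data known. Sequences are from RefSeq (GRCm38.p6), and Adgre1 is listed under an older symbol.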

Additional observations from a re-analysis of the deposited data

Results flagged for a closer look

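At 5 h, Igf2 in AMG-treated replicate 1 lay far from the other treated libraries, at 1.53 RPM (reads scaled by library totals) against 0.230 to 0.410 in replicates 2 to 4. It was the 1 such value found in a search of 20 groups of 4 libraries (10 genes in 2 groups), where chance flags about 1 group in 20. The value is not particular to that library. Igf2 was at 0.941 to 2.09 RPM in every library of replicate 1, treated or not. In every library of replicates 2 to 4 it was at 0.230 to 0.857 RPM. The cause of this difference was not tested. Replicate 1 was scaled separately from replicates 2 to 4, but RPM do not depend on that scaling.

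Igfbp3 was higher with AMG in 4 of 4 pairs at 5 h, by 0.04 to 1.28 on the log2 scale, and lower at 24 h in the single pair of replicate 1, with a ratio of -0.69. Igfbp7 was likewise higher in 4 of 4 pairs at 5 h, by 0.09 to 0.49, and lower at 12 h in replicate 1, with a ratio of -0.081. The difference between the times was not tested for either gene.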

How the results depend on the processing

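The replicate block, which the check of pairing called for, moved the genes called at 5 h from 162 to 4872 and the IGF genes called from 0 to 7 (edgeR with block 4852 and 7, length correction with block 4247 and 4). Limma without the trend called 80 genes and DESeq2 1434 (2 IGF genes). Leaving out 1 library each time gave 1 to 2200 genes, the most without AMG-treated 5h replicate 3, and 0 IGF genes. Among alternatives added after seeing the data, leaving out replicate 3 gave 6800 genes and 9 IGF genes with the block and 2782 and 2 without it, and edgeR on 4 replicates with the block gave 495 and 1. The block changed no direction. The log2 fold change turned sign for Igf2r in edgeR on 4 replicates with the table as batch (0.016), and for Igfbp7 with length corrected (-0.041 in both fits). With 1 library left out, it ranged from -0.094 to 1.18 for Igfbp2 (below 0 without the untreated library of replicate 3, at -0.079, or the treated one of replicate 2), from -0.0089 to 1.74 for Igfbp3 (below 0 without the treated one of replicate 2), from -0.071 to 0.47 for Igfbp4 (below 0 without the treated one of replicate 3 or the untreated one of replicate 2, at -0.057), and from -0.64 to 0.96 for Igfbp6 (below 0 without the untreated one of replicate 4 or the treated one of replicate 2, at -0.29, or 3, at -0.039). Igfbp6 also turned with length corrected (-0.19 in both fits) and on 4 replicates with the table as batch (-0.086) or the block (-0.045). Igf1, Igf1r and Igfbp5 kept their direction at 5 h in every fit run over several replicates. In replicate 1 the length correction moved the IGF genes below -1 from 1 to 0 at 1 h and from 0 to 1 at 5 h, and those above 1 from 1 to 0 at 5 h. Against 1 h, it moved untreated genes above 1 at 5 h from 2 to 0 and below -1 from 3 to 1, and treated genes above 1 at 24 h from 1 to 0, and scaling by library totals (RPM) moved treated genes above 1 at 12 h from 0 to 1. The cause was not tested.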
